A study of Homo sapiens with 8 samples.

Results

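The glutathione peroxidase family was followed here through 6 genes, GPX1, GPX2, GPX3, GPX4, GPX7 and GPX8, taken by symbol from the 23686 genes listed for each library. Their messenger levels came from RNA sequencing of 8 libraries of HS578T and MDA-MB-231 cells, established human lines from triple-negative breast cancers (tumours without hormone receptors or amplified ERBB2), and the study's title ties GPX1 to metastasis of this cancer. The 4 groups were siGpx1 HS578T, control HS578T, siGpx1 MDA-MB-231 and control MDA-MB-231, with 2 libraries in each. The titles name an siRNA against GPX1 in the depleted libraries, while their genotype field reads Gpx1-/-. The line was taken from the titles and the cell line field, since the number in the line name given by the source name and by a tissue field increases with each library of a line. No source used here gives the kind of control, the number of siRNAs or the time after transfection. Whether replicates came from separate cultures is not stated either, so every p-value rests on a spread between libraries that may be technical alone.

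Glutathione peroxidases reduce hydrogen peroxide and lipid hydroperoxides, and most of them take the electrons from glutathione. In GPX1, GPX2, GPX3 and GPX4 the catalytic residue is selenocysteine, which is read from a UGA codon with the help of a hairpin in the 3′ untranslated region (UTR) of the messenger RNA. GPX7 and GPX8 have cysteine at that place and sit in the endoplasmic reticulum, where they pass oxidising equivalents on to protein disulfide isomerases. GPX1 works in the cytosol and mitochondria, GPX2 is best known from the epithelium of the gut, GPX3 is secreted, and GPX4 reduces phospholipid hydroperoxides in membranes and so holds back ferroptosis, a form of cell death driven by lipid peroxidation.

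The split into selenocysteine and cysteine members can be read in the messenger sequence around the catalytic codon. The lines below give 30 bases of each sense strand from GENCODE 29 transcripts, with the catalytic codon in capitals.
GPX1: aatgtggcgtccctcTGAggcaccacggtc
GPX2: aatgtggcttcgctcTGAggcacaaccacc
GPX3: aacgtggccagctacTGAggcctgacgggc
GPX4: aacgtggcctcccagTGAggcaagaccgaa
GPX7: aatgtggccagcgagTGCggcttcacagac
GPX8: aacgtggccagtgacTGCcaactcacagac
The codon is TGA in GPX1 (chromosome 3), GPX2 (chromosome 14), GPX3 (chromosome 5) and GPX4 (chromosome 19). It is TGC, for cysteine, in GPX7 (chromosome 1) and GPX8 (chromosome 5). Of the 30 bases, GPX2 shared 24 with GPX1, GPX4 shared 21, GPX3 shared 20, GPX7 shared 19 and GPX8 shared 15.

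Library totals ran from 12905808 to 14216365 estimated counts, with 15584 to 15817 genes detected. The receptors that triple-negative cells lack were low for the hormone receptors, with ESR1 at most 0.09 TPM and PGR at most 1.02 TPM, while ERBB2 lay between 30.9 and 45.03 TPM. TPM is the authors' value per transcript length and library, so it can be set side by side between genes. The labels call both lines epithelial, but CDH1, which encodes E-cadherin, reached at most 1.11 TPM in any library, and EPCAM was 31.8 to 39.5 TPM in MDA-MB-231 and at most 0.22 TPM in HS578T. The 7 epithelial markers summed to 982 to 1079 TPM in siGpx1 and 384 to 388 TPM in control HS578T, and to 2747 to 2817 TPM in siGpx1 and 1741 to 1761 TPM in control MDA-MB-231, carried by KRT18 in HS578T and by KRT8, KRT18 and KRT19 in MDA-MB-231. The 5 mesenchymal markers summed higher as well, at 20475 to 22548 TPM in siGpx1 and 17478 to 17756 TPM in control HS578T, and at 3561 to 3597 TPM in siGpx1 and 3119 to 3168 TPM in control MDA-MB-231. Most of this sum was FN1 and VIM, which were higher in siGpx1 libraries of both lines. CDH2 was higher in HS578T, with 440 and 399 TPM in siGpx1 and 280 and 291 TPM in control libraries. In MDA-MB-231 CDH2 was barely expressed, with 0.70 and 1.22 TPM in siGpx1 and 0.52 and 0.43 TPM in control libraries. AXL and ZEB1 were lower in both lines. AXL had 218 and 214 TPM in siGpx1 and 567 and 563 TPM in control HS578T. In MDA-MB-231 AXL had 491 and 488 TPM in siGpx1 and 723 and 722 TPM in control libraries. The 6 fibroblast markers summed to 5483 to 6479 TPM in siGpx1 and 4927 to 4929 TPM in control HS578T, and to 23.05 to 23.1 TPM in siGpx1 and 17.3 to 18.5 TPM in control MDA-MB-231. The part of these shifts in the results on the family was not tested. The leukocyte list summed to 70.7 to 75.9 TPM in siGpx1 and 99.4 to 101 TPM in control HS578T, and to 174 to 179 TPM in siGpx1 and 165 to 171 TPM in control MDA-MB-231. Most of this was CD68, a lysosomal protein, at 61.3 to 166 TPM, with CD14 at 6.23 to 12.98 TPM, while PTPRC reached at most 0.19 TPM and CD3E was at 0 in all 8 libraries. Expression was measured on whole cultures, so fewer cells with a transcript and less of it per cell cannot be told apart.

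GPX1, the target, was strongly depleted in both lines. It had 9.52 and 9.02 TPM in siGpx1 HS578T, against 232 and 232 TPM in control HS578T. In MDA-MB-231 it had 21.8 and 20.4 TPM in siGpx1 libraries and 594 and 634 TPM in control libraries. Every siGpx1 library lay far below every control library of either line, so the target gene matched all 8 labels. Behind these levels stood 42 and 42 estimated counts in siGpx1 HS578T and 1117 and 1074 in control HS578T, and 108 and 95 in siGpx1 MDA-MB-231 and 2944 and 3223 in control MDA-MB-231. The fitted log2 change was -4.59 ± 0.10 (SE) in HS578T, a 24.0-fold lower level with adjusted p = 1.46e-14, and -4.84 ± 0.07 in MDA-MB-231, a 28.6-fold lower level with adjusted p = 9.08e-16 (edgeR's quasi-likelihood test, Benjamini-Hochberg adjustment over 14249 genes). The standard errors come from the F statistic and understate the error of changes this large. GPX1 ranked 22 in HS578T and 15 in MDA-MB-231 among all tested genes by size of change.

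The deeper fall in MDA-MB-231 was not separable from that in HS578T. The log2 change in MDA-MB-231 minus that in HS578T was -0.25, with a 95% interval of -0.61 to 0.10 and adjusted p = 0.409 by the interaction test in edgeR. What remained of GPX1 after depletion was still higher in MDA-MB-231, with 20.4 and 21.8 TPM against 9.02 and 9.52 TPM in HS578T, as it was in the controls. The mean transcript length that the authors' files give for GPX1, which RSEM weights over the transcripts NM_000581 and NM_201397, was 939 and 934 bases in siGpx1 and 917 and 916 bases in control MDA-MB-231, and 919 and 919 bases in siGpx1 and 919 and 914 bases in control HS578T. GENCODE 29 also annotates processed pseudogenes of GPX1, GPX1P1 and GPX1P2, which are no rows of the tables used here, and reads from such copies would have been counted with GPX1 or dropped.

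**Figure D1:**
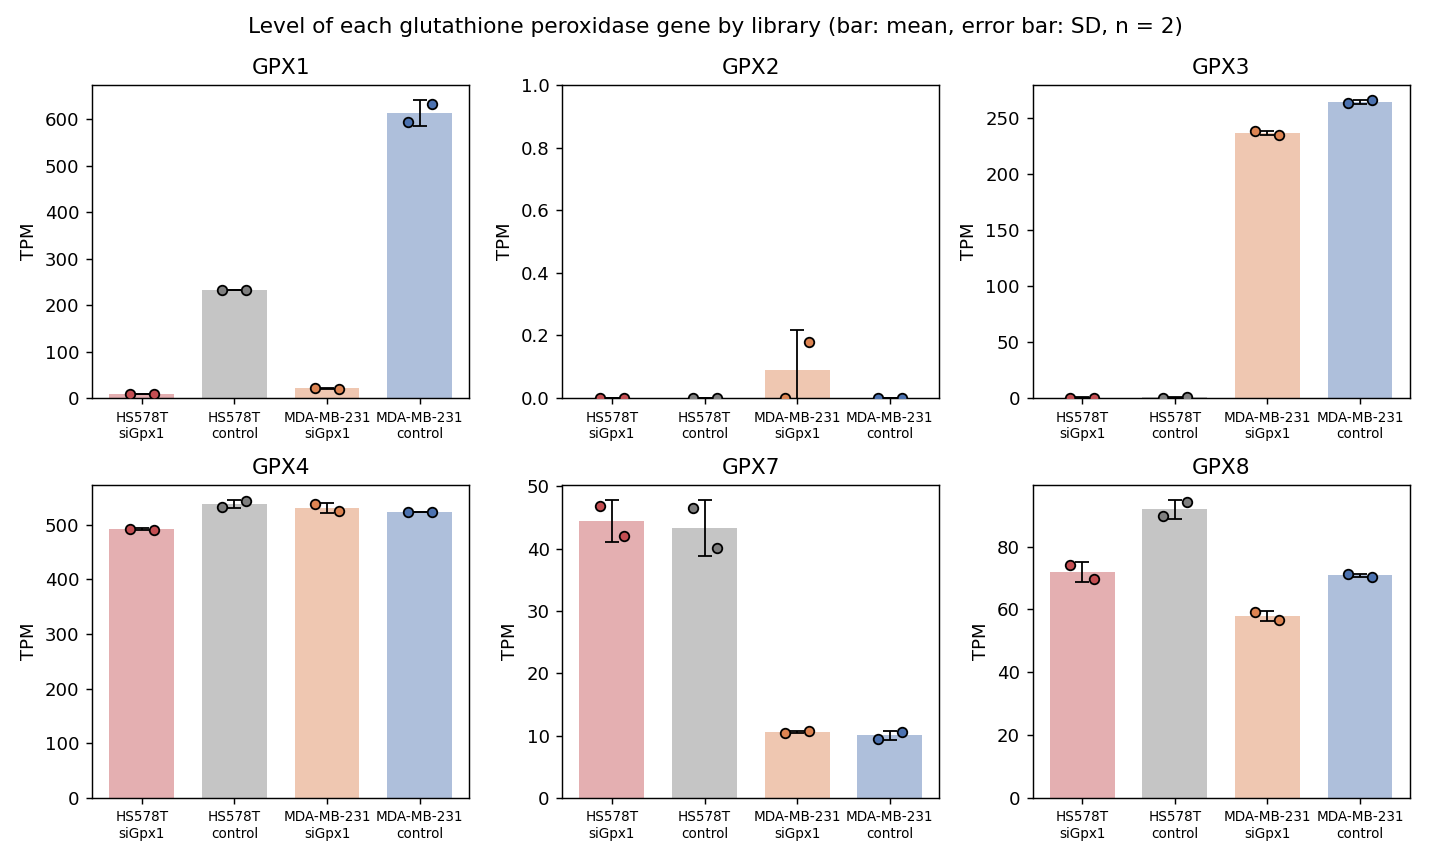
TPM of each of the 6 genes on the y axis, with its own scale per panel, in siGpx1 and control libraries of HS578T and MDA-MB-231. Points are libraries, bars are group means and error bars are SD (n = 2). GPX1 lies below 22 TPM in the 4 siGpx1 libraries and above 232 TPM in the 4 controls, while GPX4 stays between 491 and 544 TPM in all 8 libraries.

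Among the paralogs, GPX4 was the most uniform. It had 493 and 491 TPM in siGpx1 HS578T and 532 and 544 TPM in control HS578T. In MDA-MB-231 it had 537 and 524 TPM in siGpx1 libraries and 523 and 523 TPM in control libraries. In HS578T the siGpx1 libraries lay below both controls. In MDA-MB-231 they lay just above them, at the closest 524.04 TPM in siGpx1 against 522.74 TPM in control. Such separation is easily met with 2 libraries in each group, and its share over all genes was not counted. With counts scaled by TMM the log2 change was -0.08 ± 0.04 in HS578T (95% interval -0.15 to 0.00, adjusted p = 0.103) and 0.02 ± 0.04 in MDA-MB-231 (-0.06 to 0.09, adjusted p = 0.785), neither of which passed in edgeR. The fall in HS578T did pass under 8 of 17 other settings, among them DESeq2's size factors (adjusted p = 0.0403), limma on log2(TPM + 1) (adjusted p = 0.00518) and the omission of any 1 of the 4 MDA-MB-231 libraries (adjusted p = 0.0204 to 0.0241), with log2 changes from -0.13 to -0.07 over all of them. No setting gave a rise of GPX4 in HS578T or a call in MDA-MB-231.

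GPX8, one of the cysteine members of the endoplasmic reticulum, fell in both lines. It had 74.1 and 69.7 TPM in siGpx1 HS578T, against 89.6 and 94.0 TPM in control HS578T. In MDA-MB-231 it had 59.1 and 56.7 TPM in siGpx1 libraries and 71.2 and 70.4 TPM in control libraries. The groups did not overlap in either line, which is easily met with 2 libraries in each, and its share over all genes was not counted. The log2 change was -0.30 ± 0.05 in HS578T (95% interval -0.40 to -0.20, adjusted p = 4.54e-05) and -0.30 ± 0.05 in MDA-MB-231 (-0.40 to -0.20, adjusted p = 9.70e-05), both by edgeR. The difference between the lines was 0.00, with a 95% interval of -0.14 to 0.14 (adjusted p = 0.99998 by edgeR). The falls passed under all 17 other settings in each line. In size they were ordinary for these data, since 47.8% of tested genes in HS578T and 39.0% in MDA-MB-231 had a larger change in either direction.

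GPX7, the other cysteine member, did not pass in either line. It had 46.8 and 42.1 TPM in siGpx1 HS578T and 46.6 and 40.1 TPM in control HS578T, so the groups overlapped almost fully. In MDA-MB-231 it had 10.5 and 10.7 TPM in siGpx1 libraries and 9.48 and 10.5 TPM in control libraries. The log2 change was 0.09 ± 0.10 in HS578T (95% interval -0.12 to 0.29, adjusted p = 0.483) and 0.08 ± 0.16 in MDA-MB-231 (-0.27 to 0.42, adjusted p = 0.770, both by edgeR). Its 64 to 73 counts in the MDA-MB-231 libraries made this the widest interval there, and changes within it were not detectable at this depth.

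GPX3, the secreted member, reached 1 TPM in the MDA-MB-231 libraries only. In HS578T it had 0.46 and 0.33 TPM in siGpx1 libraries and 0.42 and 0.77 TPM in control libraries, from 3 to 7 counts a library. In MDA-MB-231 it had 238 and 235 TPM in siGpx1 libraries and 263 and 265 TPM in control libraries. Its log2 change in MDA-MB-231 was -0.17 ± 0.04 (95% interval -0.26 to -0.07, adjusted p = 0.00612 by edgeR), a call lost under 7 of 17 other settings, including DESeq2 (adjusted p = 0.172), limma on log2(TPM + 1) (adjusted p = 0.267) and the omission of any 1 of the 4 MDA-MB-231 libraries (adjusted p = 0.147 to 0.279). With a library of that line left out its log2 change was -0.13 to -0.10, smallest without control replicate 2, and with limma on log2(TPM + 1) it was -0.16. In HS578T the log2 change was -0.52 ± 0.52 (-1.64 to 0.59, adjusted p = 0.544 by edgeR), so a change of either direction was not detectable there.

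GPX2, the gut enzyme, was not expressed at a measurable level. It had 1 count in siGpx1 MDA-MB-231 replicate 2, given as 0.18 TPM, and 0 in the other 7 libraries. There, 0 counts allow a level of up to 0.211 to 0.228 CPM (3 counts of a library's total, counting error only). It did not pass the filter on low counts and was not tested. In the reference gene table it lies within the read-through gene CHURC1-FNTB, which had 8.16 to 22.2 TPM, and without strand information the single count cannot be assigned to either. GPX5 and GPX6, the other human genes of this family name, were listed at 0 in all 8 libraries.

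Of the 6 genes, 5 were tested. In HS578T 2 of them, GPX1 and GPX8, passed, both downwards, where 50.7% of all tested genes passed, 28.6% upwards and 22.1% downwards. In MDA-MB-231 3 passed, GPX1, GPX3 and GPX8, all downwards, where 42.6% of all genes passed, 20.7% upwards and 21.9% downwards. The balance of rises and falls over all genes turned with the setting, from 4074 and 3149 in HS578T to 3363 and 3457 at 5 CPM in 2 libraries and 3367 and 3563 on log2(TPM + 1), and from 2950 and 3116 in MDA-MB-231 to 3652 and 2544 at 5 CPM in 2 libraries. No paralog rose in either line by edgeR or under any other setting. With the target left aside, 1 of 4 paralogs in HS578T and 2 of 4 in MDA-MB-231 passed, too few genes to be set against the background. GPX3 in HS578T was also limited by its few counts. Between the lines, 0 of the 5 changes differed by edgeR's interaction test, with 0 at an unadjusted p under 0.05 as well, against 17.0% of all genes (6.32% with a more positive change in MDA-MB-231 and 10.7% with a more negative one). GPX4 passed that test under 3 of 16 other settings (adjusted p = 0.0137 to 0.0430) and GPX1 under 1 (limma on log2(TPM + 1), adjusted p = 0.0309).

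**Figure D2:**
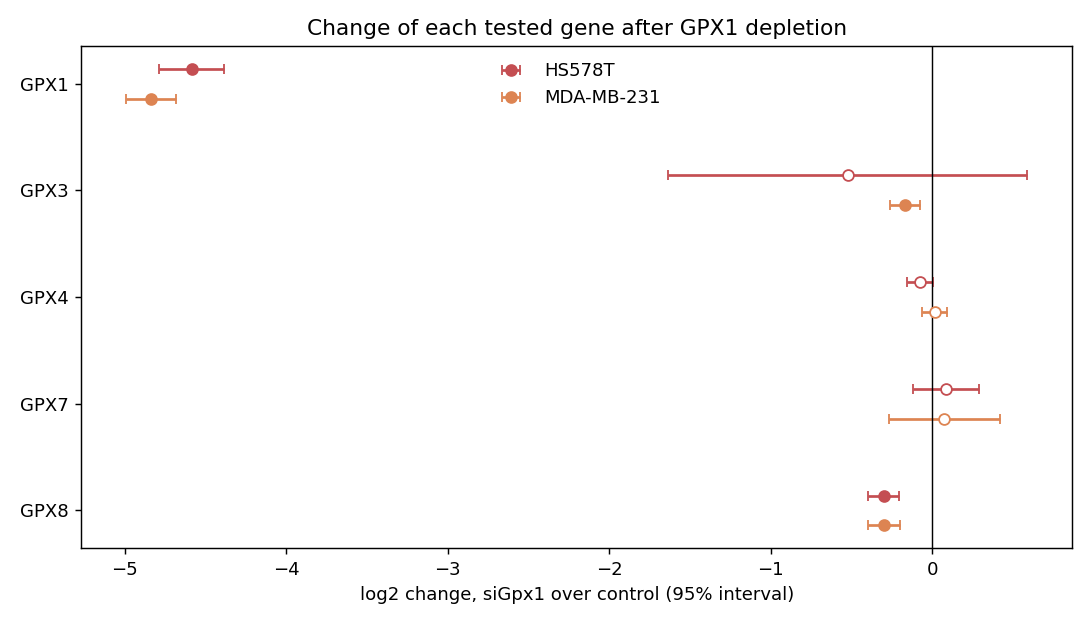
Log2 change of siGpx1 over control (x axis) for the 5 tested genes, in HS578T and MDA-MB-231, with 95% intervals from edgeR. Filled points passed at an adjusted p under 0.05 and open points did not. GPX1 lies at -4.59 and -4.84, GPX8 at -0.30 in both lines, and no gene lies on the right of 0 with an interval that leaves 0 out.

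Whether other members made up for the lost GPX1 message was read from the summed TPM of the family. The 6 genes summed to 623 and 612 TPM in siGpx1 HS578T and 901 and 911 TPM in control HS578T. They summed to 866 and 847 TPM in siGpx1 MDA-MB-231 and 1459.9 and 1503 TPM in control MDA-MB-231. The family mean was thus at 68.2% of control in HS578T and at 57.8% in MDA-MB-231. GPX1 itself accounted for a difference of -223 TPM in HS578T and -593 TPM in MDA-MB-231.

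The 5 other genes together were also lower, not higher, after depletion. They summed to 614 and 603 TPM in siGpx1 HS578T and 669 and 678 TPM in control HS578T, a difference of means of -65.3 TPM, of which GPX4 gave -46.3 TPM and GPX8 gave -19.9 TPM. In MDA-MB-231 they summed to 844 and 826 TPM in siGpx1 libraries and 866 and 869 TPM in control libraries, a difference of -31.9 TPM, made up of -27.6 TPM for GPX3, -12.9 TPM for GPX8 and 7.89 TPM for GPX4. The increases seen in GPX7 means were 1.11 TPM in HS578T and 0.60 TPM in MDA-MB-231, within the spread of its libraries. These sums are descriptions of TPM, with no test, and a TPM moves with the rest of the library as well as with the gene.

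The make-up of the pool shifted as GPX1 left it. GPX1 was 1.5% ± 0.04 of the family's TPM in siGpx1 HS578T and 25.6% ± 0.17 in control HS578T (SD, n = 2 each). It was 2.46% ± 0.08 in siGpx1 MDA-MB-231 and 41.4% ± 1.05 in control MDA-MB-231. GPX4 then made up 79.6% ± 0.84 in siGpx1 against 59.4% ± 0.41 in control HS578T, and 61.9% ± 0.09 in siGpx1 against 35.3% ± 0.71 in control MDA-MB-231. The selenocysteine members, GPX1 to GPX4, still supplied 80.6 and 81.7% of the TPM in siGpx1 HS578T and 84.9 and 85.3% in control HS578T, and 92.0 and 92.0% in siGpx1 and 94.5 and 94.6% in control MDA-MB-231.

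**Figure D3:**
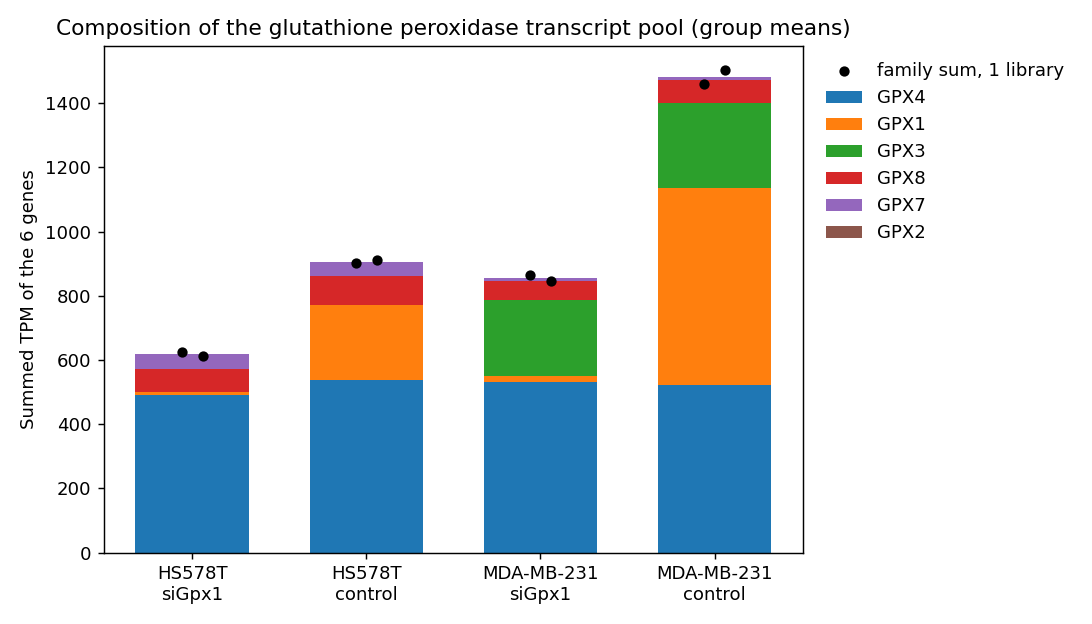
Summed TPM of the 6 genes (y axis) in siGpx1 and control libraries of both lines. Stacked bars are group means per gene (n = 2) and black dots are the sums of single libraries. The GPX1 segment is almost gone in both siGpx1 groups, GPX4 has about the same height in all 4 bars, and GPX3 appears only in the MDA-MB-231 bars.

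The order of the members by level was the same in both libraries of every group. In siGpx1 HS578T it was GPX4, GPX8, GPX7, GPX1, GPX3 and GPX2, against GPX4, GPX1, GPX8, GPX7, GPX3 and GPX2 in control HS578T. In siGpx1 MDA-MB-231 it was GPX4, GPX3, GPX8, GPX1, GPX7 and GPX2, against GPX1, GPX4, GPX3, GPX8, GPX7 and GPX2 in control MDA-MB-231. Neighbours in these orders differed in TPM by more than the spread between libraries, apart from GPX3 and GPX2 in HS578T, which lay close to 0. GPX1 thus stood 4 in the order in both siGpx1 groups, and GPX4 lay above at least 98.8% of listed genes in every library.

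The lines carried different glutathione peroxidases before any depletion. In control MDA-MB-231 GPX1 was higher than in control HS578T, with 594 and 634 TPM against 232 and 232 TPM, and GPX3 was present there at 263 and 265 TPM against 0.42 and 0.77 TPM. GPX7 was lower in control MDA-MB-231, with 9.48 and 10.5 TPM against 46.6 and 40.1 TPM in control HS578T, and GPX8 was lower as well, with 71.2 and 70.4 TPM against 89.6 and 94.0 TPM. All 5 tested members differed by edgeR, where 81.6% of all genes did (43.0% higher and 38.6% lower in MDA-MB-231). The log2 differences, control MDA-MB-231 over control HS578T, were 1.26 ± 0.05 for GPX1, 8.63 ± 0.11 for GPX3, -0.18 ± 0.04 for GPX4, -2.25 ± 0.12 for GPX7 and -0.51 ± 0.04 for GPX8. GPX3 passed the filter on low counts only through the MDA-MB-231 libraries and so had to differ. Its value rests on 4 and 7 counts in control HS578T, so its SE understates the error, and it was 8.26 and 9.10 when control HS578T replicate 1 or 2 was left out and 7.38 on log2(TPM + 1). The small difference of GPX4 was -0.04 and did not pass on log2(TPM + 1) (adjusted p = 0.199 at most, with limma). These differences are between a pair of cell lines and cannot be told apart from anything else that sets the lines apart.

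Glutathione is the electron donor of GPX1 and GPX4, and the genes that make and recycle it did not move as a block. Of 18 genes of this list, all tested, 6 rose and 3 fell in HS578T and 6 rose and 4 fell in MDA-MB-231, where 28.6% of all tested genes rose and 22.1% fell in HS578T and 20.7% rose and 21.9% fell in MDA-MB-231. By DESeq2, 3 rose and 1 fell in HS578T and 2 fell in MDA-MB-231, falls numbered 1 in HS578T without control replicate 2, and they numbered 2 in MDA-MB-231 without siGpx1 replicate 1. The list's median log2 change was 0.07 for HS578T and -0.11 for MDA-MB-231, beside 0.04 and 0.00 over all tested genes. SLC3A2, the heavy chain of the cystine importer, fell in MDA-MB-231 (log2 change -0.32, adjusted p = 7.99e-05 by edgeR), with a log2 change of 0.08 in HS578T that did not pass. GLRX, a glutaredoxin, fell in MDA-MB-231 (-0.54, adjusted p = 9.41e-05 by edgeR), with -0.03 in HS578T.

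Selenocysteine is placed by a dedicated machinery, of which 11 genes were tested. In HS578T 3 rose and 1 fell, and in MDA-MB-231 2 rose and 4 fell (2 without siGpx1 replicate 1), with medians of 0.08 and 0.02. The shares over all tested genes were 28.6% up and 22.1% down in HS578T and 20.7% up and 21.9% down in MDA-MB-231. LRP8, a receptor that takes up the selenium carrier selenoprotein P, had 12.1 and 13.4 TPM in siGpx1 against 39.7 and 37.3 TPM in control HS578T, and 12.9 and 12.7 TPM in siGpx1 against 26.0 and 26.5 TPM in control MDA-MB-231. It fell in both lines, with log2 changes of -1.55 ± 0.06 and -1.04 ± 0.06. SECISBP2, the protein that binds the selenocysteine hairpin, went in opposite directions, with 18.8 and 21.1 TPM in siGpx1 and 14 and 13.9 TPM in control HS578T, and 31.3 and 33.6 TPM in siGpx1 and 40.6 and 39.6 TPM in control MDA-MB-231. The log2 changes were 0.57 and -0.31, both of which passed. Its paralog SECISBP2L rose in both, by 0.51 and 0.26.

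Other enzymes that remove peroxide were taken as 15 tested genes for catalase, peroxiredoxins and the thioredoxin system. In HS578T 9 rose and 3 fell, with a median log2 change of 0.14, and in MDA-MB-231 5 rose and 1 fell, with a median of 0.05. Over all tested genes, 28.6% rose and 22.1% fell in HS578T and 20.7% rose and 21.9% fell in MDA-MB-231. The 9 rises in HS578T were 3, equal to the falls, with each line fitted alone, 5 by DESeq2, 4 on log2(TPM + 0.1), 5 without control replicate 1, 4 without siGpx1 replicate 2 and 4 or 5 without any 1 of the MDA-MB-231 libraries, with 3 falls in each of these. In MDA-MB-231 the rises were 3 without siGpx1 replicate 1, and the falls were 2 without siGpx1 HS578T replicate 1. SRXN1, which repairs over-oxidised peroxiredoxins, had 146 and 159 TPM in siGpx1 and 93.2 and 94.1 TPM in control HS578T, and 174 and 183 TPM in siGpx1 and 140.4 and 135 TPM in control MDA-MB-231. It rose by 0.76 and 0.37, and PRDX1, an abundant cytosolic peroxiredoxin, by 0.36 and 0.17.

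TXNRD1, the selenoprotein that reduces thioredoxin in the cytosol, went the other way. It had 95.5 and 92.2 TPM in siGpx1 HS578T and 280.1 and 289 TPM in control HS578T, and 212 and 215 TPM in siGpx1 MDA-MB-231 and 430 and 434 TPM in control MDA-MB-231. The groups lay far apart in both lines, though the share of all genes with separate groups was not counted. The log2 changes were -1.55 ± 0.04 (adjusted p = 6.00e-14) and -1.02 ± 0.03 (adjusted p = 3.63e-12, both by edgeR), and the fall was larger in HS578T (difference 0.53, adjusted p = 4.89e-06 by edgeR's interaction test).

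Of the glutathione transferases with peroxidase activity, 6 of 8 listed were tested, and 2 rose and 1 fell in HS578T and 0 rose and 2 fell in MDA-MB-231, beside 50.7% and 42.6% of all tested genes called, with medians of 0.03 and -0.17. The 2 falls in MDA-MB-231 were 0 by DESeq2 and without siGpx1 replicate 1, and 1 without any other library of that line or without control HS578T replicate 1. The 2 rises in HS578T were 1 by DESeq2, without control replicate 2 or siGpx1 replicate 2 and without any 1 of the MDA-MB-231 libraries. MGST3, a microsomal transferase, fell in both lines by edgeR, with 66.0 and 64.7 TPM in siGpx1 and 99.2 and 101.3 TPM in control HS578T and 58.8 and 64.3 TPM in siGpx1 and 74.4 and 73.9 TPM in control MDA-MB-231. MGST1 rose by 0.31 in HS578T, with a log2 change of -0.06 in MDA-MB-231 that did not pass.

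GPX4 is the central brake on ferroptosis, and of 13 tested genes that act with or against it 6 rose and 0 fell in HS578T, with a median log2 change of 0.30, while 3 rose and 1 fell in MDA-MB-231, with a median of 0.05. Of all tested genes, 28.6% rose and 22.1% fell in HS578T and 20.7% rose and 21.9% fell in MDA-MB-231. Over the other settings 5 to 7 rose and 0 to 1 fell in HS578T (1 without siGpx1 replicate 1), and 3 to 5 rose and 0 to 2 fell in MDA-MB-231 (0 without control replicate 2 or siGpx1 replicate 1, and 2 without either siGpx1 HS578T library). ACSL4, which charges membranes with the polyunsaturated fatty acids that peroxidise, had 126 and 123 TPM in siGpx1 and 83.5 and 84.5 TPM in control HS578T, and 123 and 126 TPM in siGpx1 and 114 and 109 TPM in control MDA-MB-231. It rose by 0.62 and 0.15. FTL, the ferritin light chain that stores iron, rose by 0.48 and 0.29. TFRC, the transferrin receptor that brings iron in, rose by 0.42 in HS578T, with a log2 change of -0.08 in MDA-MB-231 that did not pass.

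GPX7 and GPX8 work beside the oxidative folding enzymes of the endoplasmic reticulum, and 13 genes of that pathway were tested. In HS578T 5 rose and 4 fell, and in MDA-MB-231 4 rose and 3 fell, with medians of 0.07 and 0.01. Among all tested genes, 28.6% rose and 22.1% fell in HS578T and 20.7% rose and 21.9% fell in MDA-MB-231. The 5 rises in HS578T were fewer than the falls in most other settings, with 3 by DESeq2's size factors, 2 by DESeq2, 1 with each line fitted alone, 2 on log2(TPM + 1), 2 without control replicate 1, 3 without siGpx1 replicate 2 and 2 without any 1 of the MDA-MB-231 libraries. ERO1L, the oxidase that makes hydrogen peroxide as it oxidises disulfide isomerase, had 61.0 and 57.2 TPM in siGpx1 and 69.7 and 70.2 TPM in control HS578T, and 113 and 109 TPM in siGpx1 and 176 and 167 TPM in control MDA-MB-231. It fell by 0.19 and 0.63 on the log2 scale. ERP44, which retains such enzymes in the compartment, fell by 0.53 and 0.46, alongside GPX8, and PDIA4, a disulfide isomerase, rose by 0.10 and 0.31.

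The NRF2 list covers the regulator of the oxidative stress response and known targets, and several of its members also stand in the lists above. Of 17 tested genes, 7 rose and 3 fell in HS578T and 8 rose and 1 fell in MDA-MB-231, with medians of 0.20 and 0.22, beside 28.6% up and 22.1% down and 20.7% up and 21.9% down over all genes. Over the other settings 6 to 8 rose in HS578T and 7 to 10 in MDA-MB-231. PGD, an NADPH-making enzyme of sugar metabolism, had 181 and 205 TPM in siGpx1 and 101.5 and 102 TPM in control HS578T, and 190.5 and 194 TPM in siGpx1 and 113 and 118 TPM in control MDA-MB-231. It rose by 0.97 and 0.73. TXNRD1 was among the members that fell. Of the enzymes that make superoxide or hydrogen peroxide, 10 of 14 listed were tested, and 2 rose and 0 fell in HS578T while 2 rose and 1 fell in MDA-MB-231, counts that ran from 1 to 2 and 0 to 1 and from 1 to 4 and 0 to 1 over the other settings. HS578T had 2 rises with 1 fall without siGpx1 MDA-MB-231 replicate 1, where MDA-MB-231 had 1 rise and 0 falls, and without either control HS578T library the HS578T counts were 1 and 0. SOD2, the mitochondrial superoxide dismutase, rose by 0.82 and 0.15.

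**Figure D4:**
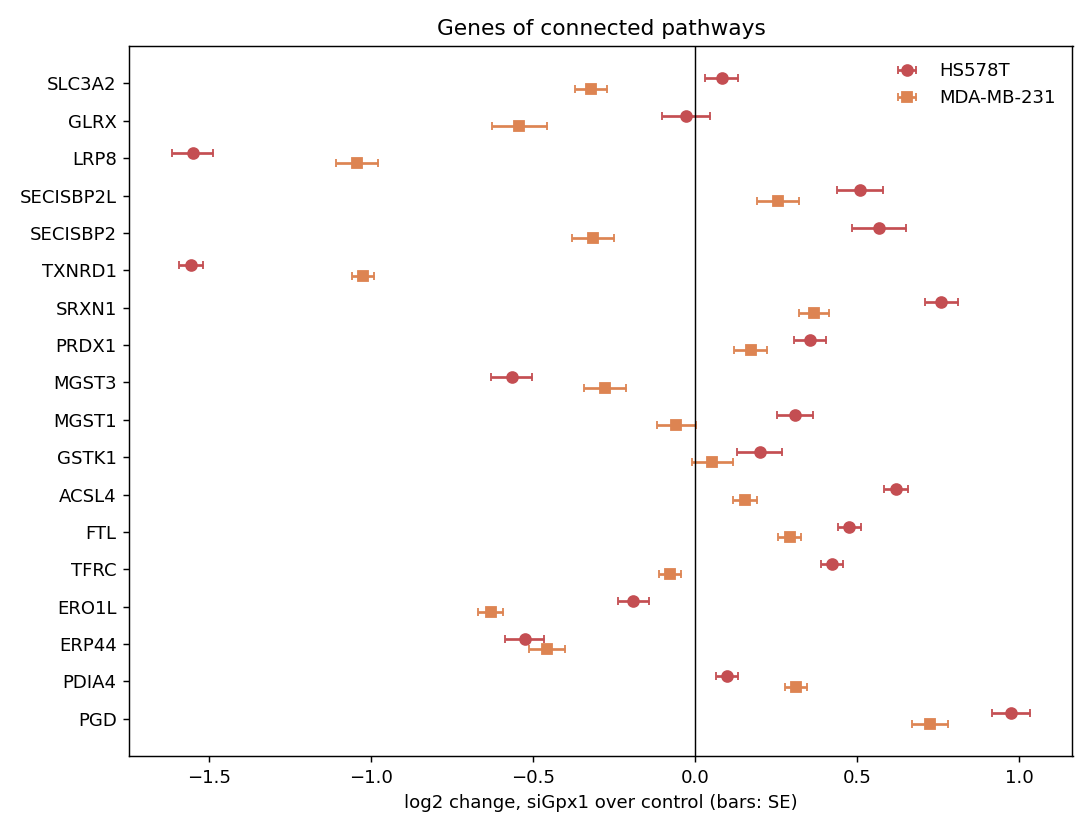
Log2 change of siGpx1 over control (x axis) with SE for 18 genes of the connected pathways, in HS578T and MDA-MB-231. SLC3A2 and GLRX did not pass in HS578T, and MGST1, GSTK1 and TFRC did not pass in MDA-MB-231. LRP8 and TXNRD1 lie farthest to the left in both lines, PGD farthest to the right.

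The promoters of the members were searched for the core of the antioxidant response element, TGACNNNGC, to which NRF2 binds, on both strands of 300 bases around each start site (250 before and 50 after, RefSeq, GRCh38.p14). Of 35116 such windows, 13.3% held it. Among the 6 genes a match was found in GPX2 alone, the member with no measurable expression, within chr14:64942696-64942995 (minus strand), and it is shown with the core, which runs on the reverse strand, in capitals.
GPX2: acctgtttttGCTAAGTCAtcctggggatg
A match is a description of letters, and GPX1, GPX3, GPX4, GPX7 and GPX8 had none in this window. In CpG dinucleotides the GPX2 and GPX8 windows held 4 each, the GPX3 window 21, the GPX1 window 23, the GPX7 window 30 and the GPX4 windows 39, 39 and 43, beside a median of 14 over all windows.

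One stretch of GPX1 was compared with the other members. The 8-base sequence GGGCATCA had come out of an earlier search of these same fold changes, so what follows is a description with no test. It stands in the coding region of 3 of 4 protein-coding GPX1 transcripts of GENCODE 29, and 7 of its bases stand in the coding region of 8 of 10 GPX4 transcripts, as shown with the match in capitals.
GPX1: gcaaccagtttGGGCATCAggagaacgcca
GPX4: cccaagggcaaGGGCATCctgggaaatgcc
No transcript of GPX2, GPX3, GPX7 or GPX8 held either of its 7-base parts, and the longest 3′ UTRs of GPX3, GPX4, GPX7 and GPX8 had no match. GPX8, which fell in both lines, was thus without a match. Across all genes searched, the 324 with all 8 bases in the 3′ UTR had a median log2 change of -0.36 after depletion in HS578T and of -0.31 in MDA-MB-231, the 1558 with a 7-base match had -0.15 and -0.17, and the 10594 with none had 0.07 and 0.02. Since the sequence was chosen on these same fold changes, the order of the medians is no support for a role of it. Of the pathway genes named above, TXNRD1, LRP8, MGST3, ERP44, PDIA4 and SOD2 had a 7-base match in the 3′ UTR, and the first 4 of these fell and the last pair rose in both lines. ERO1L was not searched. CLCN4 and MDH2, which lay near GPX1 by profile and fell in both lines, had a 7-base match too. ADIPOR2, which fell as well, had none. TIMP3, near GPX7 by profile, had a 7-base match and rose in both lines. OSGIN2, also near GPX7, and ZNF300, beside GPX3, had a 7-base match and did not pass in either line. NOX5, at most 0.34 TPM in HS578T, had all 8 bases, and it rose in HS578T and fell in MDA-MB-231.

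The genes whose levels were closest to those of each member over the 8 libraries were found by Euclidean distance between log2 CPM profiles, each centred on its mean, among 10665 genes. GPX1 had no close companion by this distance, since its nearest, CLCN4, MDH2 and ADIPOR2, lay at 2.93, 3.02 and 3.04, beside a median distance of 6.93. The distance grows with the size of a change, and these genes fell less than GPX1. In shape they followed it, with Pearson correlations over the 8 libraries of 0.946, 0.990 and 0.996. The genes were picked as nearest over these same 8 libraries, so the correlations describe the choice and are no separate evidence. MDH2, the mitochondrial malate dehydrogenase, had 40.5 and 41.5 TPM in siGpx1 and 319 and 306 TPM in control HS578T, and 70.4 and 65.4 TPM in siGpx1 and 387 and 396 TPM in control MDA-MB-231. GPX3 lay nearest to UCP2, CDA and PLEKHA7 (0.25, 0.60 and 0.63), which were at most 0.21 TPM in every HS578T library, where GPX3 had 0.33 to 0.77 TPM. GPX4 lay nearest to ARPC4, TALDO1 and TM9SF2 (0.07, 0.07 and 0.08), GPX7 to PLOD1, TIMP3 and OSGIN2 (0.17, 0.21 and 0.25), and GPX8 to ILK, ACOT8 and RER1 (0.08, 0.13 and 0.14). For GPX4 and GPX8 the median distances were 1.05 and 1.33. ILK, the integrin-linked kinase, fell with GPX8, by 0.23 in HS578T and 0.27 in MDA-MB-231.

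Flanking genes were read from the order of genes on each member's chromosome. RHOA, a small GTPase gene next to GPX1 in the reference gene table, had 872 and 866 TPM in siGpx1 and 805 and 782 TPM in control HS578T, and 906 and 913 TPM in siGpx1 and 872 and 874 TPM in control MDA-MB-231. It rose by 0.19 in HS578T, with a log2 change of 0.05 in MDA-MB-231 that did not pass. USP4, on the other side of GPX1, rose by 0.48 and 0.33. CDC20B, which overlaps GPX8, had at most 0.12 TPM in any library, against 56.7 TPM or more for GPX8. POLR2E, beside GPX4, fell by 0.15 and 0.22, and SBNO2, on its other side, rose by 0.65 in HS578T and fell by 0.30 in MDA-MB-231.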

How the data were processed

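RNA was sequenced from 8 libraries, 2 in each of 4 groups read from the sample titles. Per the submitters' processing notes, FastQC, RSEM 1.2.12 and build hg19 were used, and the aligner is not given in the sources used here. The authors deposited, per gene, RSEM's expected counts, in which reads that fit several genes are shared out, and TPM, the same estimates per effective length scaled to a fixed total. Of detected expected counts, 94.7 to 94.9% were whole numbers, and all were rounded.

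Genes were kept by edgeR's filterByExpr (minimum count 10), which left 14249, scaled by TMM and fitted with 1 mean per group over all 8 libraries (4 residual degrees of freedom, common biological coefficient of variation 0.0342). The groups shared this spread but were unequal in it. Mean chi-square per gene between libraries was 3.91 in siGpx1 and 1.93 in control HS578T. It was 1.35 in siGpx1 and 1.69 in control MDA-MB-231. With each line fitted alone, 6540 genes passed in HS578T and 6871 in MDA-MB-231, against 7223 and 6066. Contrasts used the quasi-likelihood test, and a gene passed where its p, adjusted by Benjamini-Hochberg over all genes, was under 0.05. SE was taken as the size of the log2 change divided by the root of F. Scaling to TPM and TMM differ where a few abundant genes move, which can shift small changes such as that of GPX4. The alternatives were DESeq2's size factors in edgeR, DESeq2, limma-voom, no filter, at least 5 CPM in 2 libraries, replicate number as a block, each line alone, limma on log2(TPM + 1) and log2(TPM + 0.1), and leaving out each library. List counts were recomputed under them after the data had been seen.

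All 6 members, up to 3 genes of each of 8 lists with the smallest p, the 3 nearest profiles (mean of at least 5 CPM, prior count 2) and the flanking genes are named. Some list and marker genes are not reported here. Members and lists were chosen with earlier results of these data known. The 3′ UTR search took UTRs of at least 30 bases. Transcripts came from GENCODE 29, and gene order and promoters from RefSeq on GRCh38.p14, a later build than the files', so they served for sequences, names and gene order, and the promoter coordinates given are of that build. Software was Python 3.11.15 (pandas 2.3.3, numpy 2.4.6, matplotlib 3.10.9) and R 4.3.3 with DESeq2 1.42.0, limma 3.58.1 and edgeR 4.0.16.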

Additional observations from a re-analysis of the deposited data

Results flagged for a closer look

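No glutathione peroxidase gene changed differently in the lines by edgeR's interaction test, while 20 of 51 genes picked around the family did, where 17.0% of all tested genes did. Among the 51, FAM159A, CDC20B and GZMA were not tested. Most of the 51 had been picked for their small p in a list or for a profile like that of a member. Their share is therefore no measure of the pathways and cannot be set against that of the family. The values below are log2 changes in MDA-MB-231 minus those in HS578T, each past an adjusted p of 0.05 in that test. More negative or less positive in MDA-MB-231 were SLC3A2 (-0.40), GLRX (-0.51), SECISBP2 (-0.88), SRXN1 (-0.39), MGST1 (-0.37), ACSL4 (-0.47), FTL (-0.18), TFRC (-0.50), ERO1L (-0.44), SOD2 (-0.67) and PGD (-0.25). NOX5, an oxidase that makes superoxide, had the largest difference (-3.22), from at most 0.34 TPM in any HS578T library. Less negative or more positive in MDA-MB-231 were LRP8 (0.51), TXNRD1 (0.53), MGST3 (0.29) and PDIA4 (0.21). Of the genes with a profile near that of GPX1, CLCN4 (0.53) and MDH2 (0.34) fell less in MDA-MB-231. Of the flanking genes, TNIP1, beside GPX3, differed by -0.52 and SBNO2, beside GPX4, by -0.95, and both rose in HS578T and fell in MDA-MB-231. The causes were not tested.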

How the results depend on the processing

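Among 17 other settings, GPX1 and GPX8 kept their fall and their call in both lines, and 2 to 3 members were called in either line. GPX4 in HS578T and GPX3 in MDA-MB-231 crossed the threshold as given above. Members whose change differed between the lines numbered 1 at 5 CPM in 2 libraries, 2 on log2(TPM + 1) and 1 on log2(TPM + 0.1), against 0, and 0 without any single library. All genes that differed numbered 2428, against 1279 by DESeq2 and 1519 (without siGpx1 MDA-MB-231 replicate 1; 1579 without its replicate 2) to 2737 with a library left out, and their split was 900 up and 1528 down by TMM, against 1251 and 1000 with DESeq2's size factors. GPX7 in HS578T ranged from -0.0194 (without control replicate 2) to 0.187 with a library left out. Its difference between the lines, -0.01, changed sign with DESeq2's size factors (0.0460), by DESeq2 (0.0452), without a filter (0.00197), at 5 CPM in 2 libraries (0.0912), on log2(TPM + 1) (0.0406) and log2(TPM + 0.1) (0.0467), and ranged from -0.11 to 0.17 with a library left out. With a library left out, the difference of GPX3 ranged from -0.11 to 0.74 and that of GPX8 from -0.0225 to 0.13. The cause was not tested. By CPM, which is not per length, GPX1 was 1.07% of the family in siGpx1 and 19.0% in control HS578T and 1.68% in siGpx1 and 31.0% in control MDA-MB-231, and with a library left out its TPM shares were 1.47 to 1.53%, 25.5 to 25.8%, 2.40 to 2.51% and 40.7 to 42.2% in these groups. Same-numbered replicates did not deviate together over genes (correlation -0.08 in HS578T and 0.06 in MDA-MB-231). With 2 libraries in each group this cannot show whether same-numbered libraries shared a culture or a batch. With replicate number as a block, 7226, 6032, 2411 and 11032 genes were called in HS578T, MDA-MB-231, their difference and the controls, with 2, 3, 0 and 5 members. Of listed genes called, 34 to 48 of 50 in HS578T and 30 to 42 of 42 in MDA-MB-231 stayed called in the same direction, and 0 changed sign. Depth limits GPX2, GPX3 in HS578T and GPX7 in MDA-MB-231.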
